A study of Mus musculus with 8 samples.

Results

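The α- and β-tubulin genes Tuba1a, Tuba1b, Tuba1c, Tuba4a, Tuba8, Tubb2a, Tubb2b, Tubb4b, Tubb5 and Tubb6 are 10 of the 54838 genes counted in mouse oocytes of a knockout study. They were chosen by name, with earlier results of these data known, as isotypes whose levels between the germinal vesicle (GV) stage and metaphase of the second meiotic division (MII) were to be set side by side. The levels at GV and MII are therefore a description here, with no test for the members. The knockout oocytes lacked BAF250a through Gdf9-cre, a recombinase active in growing oocytes, and carry the genotype label BAF250aGKO. BAF250a is a subunit of the BAF chromatin remodelling complex and is encoded by Arid1a. The groups were BAF250aGKO oocytes at MII, wildtype control oocytes at MII, BAF250aGKO oocytes at GV and wildtype control oocytes at GV, all of strain C57BL/6. Each group had 2 libraries of total RNA, made from 5 to 10 oocytes each. The sources used here do not give the ages of the mice, the deleted exon, the way RNA was selected or whether replicates came from separate animals. The p-values therefore reflect the spread among these libraries, which may be technical.

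Microtubules are hollow polymers of α- and β-tubulin heterodimers, and both subunits come as isotypes from separate genes that differ mostly in their acidic carboxy-terminal tails. In the oocyte they form the network of the GV stage and then the meiotic spindle. A full-grown oocyte is nearly silent in transcription, and during maturation it builds its spindle from stored protein and mRNA while many stored mRNAs are cleared or change the length of their poly(A) tail. Cells also hold tubulin mRNA in check: when free tubulin is abundant, TTC5 binds the first residues of newly made tubulin on the ribosome and recruits SCAPER and the CCR4-NOT deadenylase to the mRNA.

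Depth was 28846136 to 33289150 reads in genes in the knockout MII libraries, 26005880 to 29740748 at control MII, 22388567 to 22686587 at knockout GV and 19587421 to 20913886 at control GV. Arid1a, the targeted gene, had 1109 and 576 reads at knockout MII against 42047 and 39148 at control MII, and 86 and 312 at knockout GV against 8178 and 10928 at control GV. All 12 oocyte marker genes were detected in every library. Their summed level was 18720 and 21780 CPM (counts scaled to the reads in genes of the library) at knockout MII and 19350 and 20230 CPM at control MII, against 38960 and 40800 CPM at knockout GV and 38650 and 43650 CPM at control GV. Summed levels of 17 granulosa and cumulus markers were 67.5 to 161 CPM and of 8 stroma markers 0.383 to 3.23 CPM over the libraries. Of the 17 granulosa and cumulus markers, 11 and 8 had reads at knockout MII and 11 and 15 at control MII, against 14 and 13 at knockout GV and 13 and 13 at control GV, and Fshr was at 0 in all MII libraries. The 14 blood and immune markers summed to 57.2 CPM in control MII library b, where 6 had reads (Cd52, Tyrobp, Fcer1g, Laptm5, Cd74 and Ccl3) while Ptprc, Csf1r, Lyz2, the 4 globin genes and Alas2 were at 0. In the other libraries they summed to between 2.85 and 14.3 CPM, with 2 to 6 detected. The share of reads from mitochondrial genes was 3.03% and 4.41% at knockout MII and 6.03% and 6.93% at control MII, against 0.249% and 0.379% at knockout GV and 0.446% and 0.105% at control GV.

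The isotypes encode the short start that the autoregulation machinery reads on the newly made protein. The first 12 coding bases of 5 members in GENCODE M21 transcripts are shown. All bases are in capitals because the whole stretch encodes the residues that are recognised.
Tuba4a: ATGCGCGAGTGC
Tuba1c: ATGCGTGAGTGC
Tubb4b: ATGAGGGAGATC
Tubb5: ATGAGGGAAATC
Tubb2a: ATGCGCGAGATC
The 4 encoded residues were the same within each subunit for all 10 members. The codons differ between the isotypes shown, though not between all isotypes: Tuba1b has the same 12 bases as Tuba1c. At the other end most of the genes shown diverge. The last 36 coding bases of 3 α members are shown because the final codon, in capitals, decides whether the protein ends in the tyrosine that the detyrosination cycle removes and restores.
Tuba4a: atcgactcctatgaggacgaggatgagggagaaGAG
Tuba1b: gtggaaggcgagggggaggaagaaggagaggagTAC
Tuba1c: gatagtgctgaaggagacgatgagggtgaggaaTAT
Tuba4a ends in a glutamate codon, whereas Tuba1b and Tuba1c end in a tyrosine codon. The coding ends of 4 β members from codon 431 are shown because glutamate chains are added in this tail. Its encoded residues set Tubb4b and Tubb5 apart, while those of Tubb2a and Tubb2b are the same. Capitals mark codons whose residue is not the same in all 4 when compared by position, without alignment. Tubb5 has 444 codons and the others have 445, so its closing codons are offset. The final codon is in capitals for this reason, although it encodes alanine in all 4.
Tubb4b: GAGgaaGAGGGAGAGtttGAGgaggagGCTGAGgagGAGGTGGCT
Tubb2b: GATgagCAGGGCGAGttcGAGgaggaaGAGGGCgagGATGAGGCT
Tubb5: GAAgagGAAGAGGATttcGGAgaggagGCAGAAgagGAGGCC
Tubb2a: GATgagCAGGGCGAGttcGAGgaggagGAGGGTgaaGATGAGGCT

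The tubulin coding sequences resemble each other and have pseudogene copies, which bears on how well reads can be assigned. Tuba1a and Tuba1b share 98.3% of coding bases by position, and Tubb2a and Tubb2b share 96.5%. The 50-base words of each transcript were looked up, on either strand, in transcripts of other annotated genes. The share found there was 83.1% for Tuba1b, 75.5% for Tuba1a, 61% for Tuba1c and 55.5% for Tubb4b. For Tubb2a the share was 49.6%, for Tuba4a 48.8% and for Tubb2b 39.3%. It was 14.7% for Tuba8, 0.115% for Tubb5 and 0% for Tubb6. The shared words of Tuba4a lie in Stk16 and a predicted gene, and those of Tubb4b include Fam166a and pseudogenes. Several close relatives are also neighbours on mm10: Tuba1b (chromosome 15, 98931425 to 98934565, minus strand), Tuba1a (98949837 to 98953703, minus) and Tuba1c (99029891 to 99038110, plus) lie side by side, as do Tubb2a (chromosome 13, 34074274 to 34078007, minus) and Tubb2b (34126748 to 34130466, minus). Tubb4b lies on chromosome 2 (25222160 to 25224702, minus), Tuba4a on chromosome 1 (75214228 to 75219865, minus) and Tubb5 on chromosome 17 (35833921 to 35838306, minus). Reads from shared stretches may be left uncounted or split, so the levels of these 7 members are uncertain, while Tubb5 and Tubb6 have almost no shared stretch.

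The α members differed widely in their MII level as a share of their GV level. Levels of 1 gene across libraries are given in CPM scaled by the trimmed mean of M values (TMM), and log2 fold changes ± SE come from the edgeR fit. Tuba4a, an isotype that lacks the encoded tyrosine, had 0.745 and 0.604 CPM at knockout MII and 1.19 and 0.43 CPM at control MII, against 369 and 292 CPM at knockout GV and 329 and 357 CPM at control GV. This was the deepest difference of the 9 measured members: MII stood at 0.204% of GV in knockout (log2 fold change -8.92 ± 0.51) and at 0.237% of GV in control oocytes (-8.74 ± 0.50). The MII values rested on 13 to 31 reads per library, against 6511 to 8514 at GV, and the stages did not overlap. Tuba1b, an isotype of most dividing cells, had 11.6 and 6.46 CPM at knockout MII and 6.81 and 6.44 CPM at control MII, against 53.3 and 74.1 CPM at knockout GV and 68.7 and 91.3 CPM at control GV. Its MII level was 14.2% of GV in knockout and 8.28% of GV in control oocytes, again without overlap of the stages.

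Tuba1c, a close relative of Tuba1b, was retained to a larger degree. It had 141 and 109 CPM at knockout MII and 112 and 92.3 CPM at control MII, against 394 and 292 CPM at knockout GV and 254 and 421 CPM at control GV. MII stood at 36.6% of GV in knockout (-1.45 ± 0.32) and 30.3% of GV in control oocytes (-1.72 ± 0.32), and all MII values lay under all GV values. Tuba1a, the main α isotype of developing neurons, was low throughout. It had 2.53 and 1.1 CPM at knockout MII and 1.73 and 5.72 CPM at control MII, against 6.06 and 6.03 CPM at knockout GV and 5.57 and 7.42 CPM at control GV. Control MII library b, the library with the high blood and immune markers, overlapped the control GV values; the part of those markers in Tuba1a was not tested. Tuba8, an isotype described mainly in muscle and testis, had 0 reads in all 8 libraries, which allows a level of up to 0.0901 to 0.153 CPM by library (3 counts, counting error only).

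Among the β members, the one most abundant at GV stood at a small fraction of its GV level at MII. Tubb4b, a broadly expressed isotype that is also enriched in cilia, had 32 and 35.9 CPM at knockout MII and 34.4 and 40.4 CPM at control MII, against 3161 and 2139 CPM at knockout GV and 2217 and 1525 CPM at control GV. Its MII level was 1.28% of GV in knockout (-6.29 ± 0.40) and 2% of GV in control oocytes (-5.64 ± 0.38). Tubb2b, a neuronal isotype, had 0.774 and 0.68 CPM at knockout MII and 1.54 and 1.45 CPM at control MII, against 52.7 and 68.1 CPM at knockout GV and 59.3 and 94.2 CPM at control GV. Its MII level was 1.2% of GV in knockout and 1.95% of GV in control oocytes. The near-identical Tubb2a behaved otherwise. It had 106 and 76.8 CPM at knockout MII and 86.5 and 53.4 CPM at control MII, against 274 and 310 CPM at knockout GV and 339 and 452 CPM at control GV. MII stood at 31.2% of GV in knockout (-1.68 ± 0.32) and 17.7% of GV in control oocytes (-2.50 ± 0.33).

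Tubb6, a divergent isotype found at low levels in most tissues, had 71.3 and 36 CPM at knockout MII and 69.7 and 49.2 CPM at control MII, against 1009 and 1014 CPM at knockout GV and 1299 and 774 CPM at control GV. Its MII level was 5.3% of GV in knockout (-4.24 ± 0.43) and 5.74% of GV in control oocytes (-4.12 ± 0.43). Tubb5, the main β isotype of dividing cells, had 6.05 and 6.42 CPM at knockout MII and 19.6 and 36.4 CPM at control MII, against 269 and 210 CPM at knockout GV and 316 and 307 CPM at control GV. MII stood at 2.6% of GV in knockout (-5.26 ± 0.38) and 8.99% of GV in control oocytes (-3.47 ± 0.35). For all 5 β members every MII value lay under every GV value. The share of all genes that separate in this way was not counted, so nothing is read from it.

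**Figure D1:**
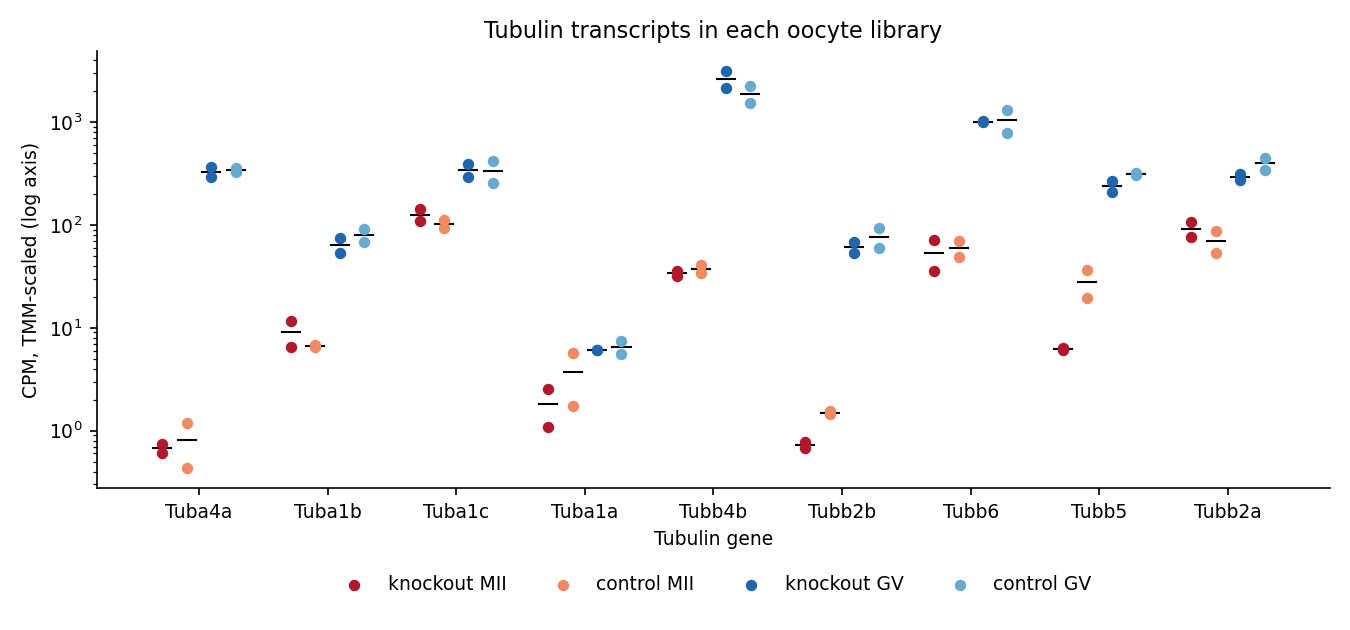
TMM-scaled CPM on a log axis of the 9 members with reads, 4 α left and 5 β right, in the 2 libraries of each group (points) with the group mean (line). Knockout MII and control MII points sit under the GV points of the same gene, except for Tuba1a, where control MII library b at 5.72 CPM lies within the control GV range of 5.57 to 7.42 CPM.

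Of the 10 members 9 passed the filter on low counts, Tuba8 being the exception. The median log2 difference of the 9 was -4.24 in knockout and -3.59 in control oocytes, beside -0.33 and -0.20 over all 15572 genes tested. Because the choice of members names this comparison, nothing is read from these medians. All these levels are relative to the reads in genes of the same library. Fewer mRNA molecules and shorter poly(A) tails cannot be told apart, since the selection of RNA is not given.

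**Figure D2:**
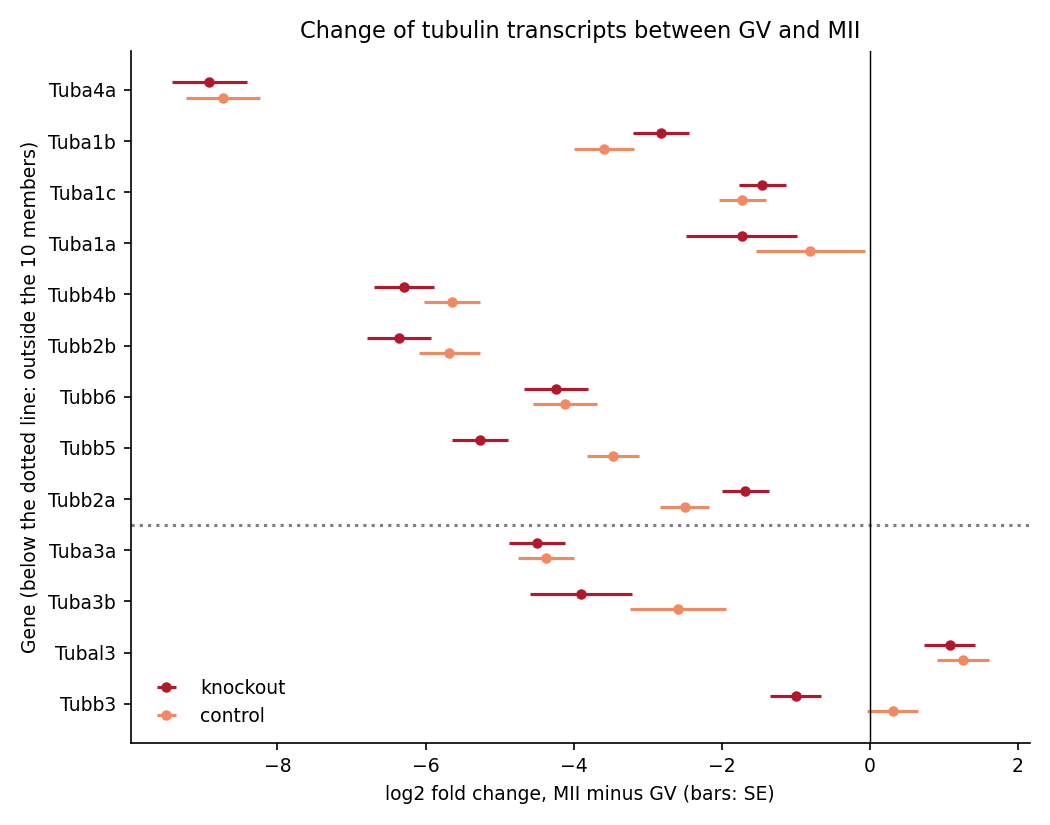
Log2 fold change of MII minus GV (x axis) with its SE for 9 members, above the dotted line, and 4 other α- and β-tubulin genes under it, in knockout (dark) and control (light) oocytes. Values run from -8.92 for Tuba4a in knockout oocytes to 1.26 for Tubal3 in control oocytes.

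The order of isotypes by counted reads changed with the stage. To compare genes with each other, counts were divided by exon length and given as CPM per kilobase without TMM scaling. Shared stretches were not taken out of the length, so the order of genes with unlike sharing, such as Tubb6 and Tubb2a, is uncertain. At MII, Tubb2a at 55 ± 15.8 and Tuba1c at 53.1 ± 13 CPM per kb stood on top in knockout oocytes, and Tuba1c at 45 ± 5.56 and Tubb2a at 43.7 ± 14.1 CPM per kb in control oocytes (SD, n = 2 each). These 2 overlapped in each group. Tubb6 at 21.5 ± 11.3 and Tubb4b at 15.6 ± 0.249 CPM per kb came next in knockout MII and overlapped, while in control MII Tubb6 at 24.6 ± 5.71 and Tubb4b at 18.1 ± 2.31 CPM per kb did not. At GV the order began with Tubb4b at 1143 ± 49.7 CPM per kb in knockout and 992 ± 144 in control oocytes, then Tubb6 at 386 ± 90.4 in knockout and 468 ± 115 in control oocytes. Tubb2a and Tuba1c followed at GV in both genotypes and overlapped each other. Tubb5 stood under Tuba1b at knockout MII, with 1.8 ± 0.0435 CPM per kb, and above it at control MII, with 8.51 ± 3.7 CPM per kb, without overlap with Tuba1b in either group. Tuba1a, Tubb2b and Tuba4a, in that order, were the lowest of the members with reads in both MII groups.

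Summed over the 10 members, the level was 153 ± 42.7 CPM per kb at knockout MII and 146 ± 18.1 at control MII, against 2043 ± 131 at knockout GV and 2209 ± 31 at control GV. The α members alone summed to 59 ± 15.9 at knockout MII and 50.9 ± 4.2 at control MII, against 253 ± 23.5 at knockout GV and 327 ± 112 CPM per kb at control GV. The β members summed to 94.2 ± 26.9 at knockout MII and 95.5 ± 13.9 at control MII, against 1790 ± 108 at knockout GV and 1883 ± 143 CPM per kb at control GV. The β sum at MII was thus 5.26% of GV in knockout and 5.07% of GV in control oocytes, and the α sum 23.3% and 15.6%. With 2 libraries against 2, an exact permutation test cannot reach a p under 0.05, and these sums were not tested.

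The members are part of a wider set, and the counts of the genes left out are set beside them here. Tubb3, the β isotype known as a marker of neurons, had 370 and 539 CPM at knockout MII and 1304 and 866 CPM at control MII, against 1056 and 757 CPM at knockout GV and 1014 and 735 CPM at control GV. It passed as lower at MII in knockout oocytes (-1.0 ± 0.34, adjusted p = 0.0339 by edgeR's quasi-likelihood test), but not without knockout MII library 1 or without knockout GV library 1. In control oocytes it differed by 0.31 ± 0.34 (adjusted p = 0.47). Of all β-tubulin transcripts per length, Tubb3 made up 63.8% and 77.9% at knockout MII and 86.9% and 84.6% at control MII, against 20.4% and 19% at knockout GV and 22% and 21.2% at control GV. Tubb4b made up 4.93% and 4.65% at knockout MII and 2.05% and 3.53% at control MII, against 54.7% and 48.1% at knockout GV and 43% and 39.4% at control GV. No library of one stage reached the other in either share. Other genes shared 0% of the 50-base words of Tubb3 and 55.5% of those of Tubb4b. Reads may therefore be lost unevenly, and the shares of genes against each other are uncertain. The size of this effect was not tested.

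On the α side the testis isotype Tuba3a had the largest counted share per length at GV. The share of 50-base words found in other genes was 35.3% for Tuba3a and 29.5% for Tuba3b. It was 61% for Tuba1c and 48.8% for Tuba4a, so the order of these genes is uncertain. Tuba3a had 22.1 and 22.9 CPM at knockout MII and 29.3 and 23.6 CPM at control MII, against 671 and 338 CPM at knockout GV and 545 and 546 CPM at control GV. Tuba3a fell at MII in knockout (-4.49 ± 0.38, adjusted p = 1.45e-05) and in control oocytes (-4.37 ± 0.38, adjusted p = 2.44e-05). Its near copy Tuba3b also fell (-3.90 ± 0.69 in knockout and -2.59 ± 0.65 in control oocytes), and the call in control oocytes was lost without control GV library 2 (-1.58). Tubal3, a divergent α-tubulin-like gene, went the other way, with 54.6 and 75.9 CPM at knockout MII and 68.1 and 56.8 CPM at control MII, against 34.6 and 27.1 CPM at knockout GV and 19.5 and 32.6 CPM at control GV. It rose in knockout (1.08 ± 0.34, adjusted p = 0.0245) and in control oocytes (1.26 ± 0.35, adjusted p = 0.0126); the calls were lost without single libraries of the groups compared, in 3 of 8 fits for knockout and 2 of 8 for control oocytes. Of all α transcripts per length, Tuba1c held 59.8% and 51.2% at knockout MII and 47% and 46.9% at control MII, against 21.4% and 25.7% at knockout GV and 17.7% and 23.8% at control GV. Tuba3a held 14.2% and 16.3% at knockout MII and 18.6% and 18.2% at control MII, against 55.2% and 45.3% at knockout GV and 57.4% and 46.8% at control GV. Tubb1, the platelet isotype, had 0 reads and Tubb4a at most 9 reads in a library.

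**Figure D3:**
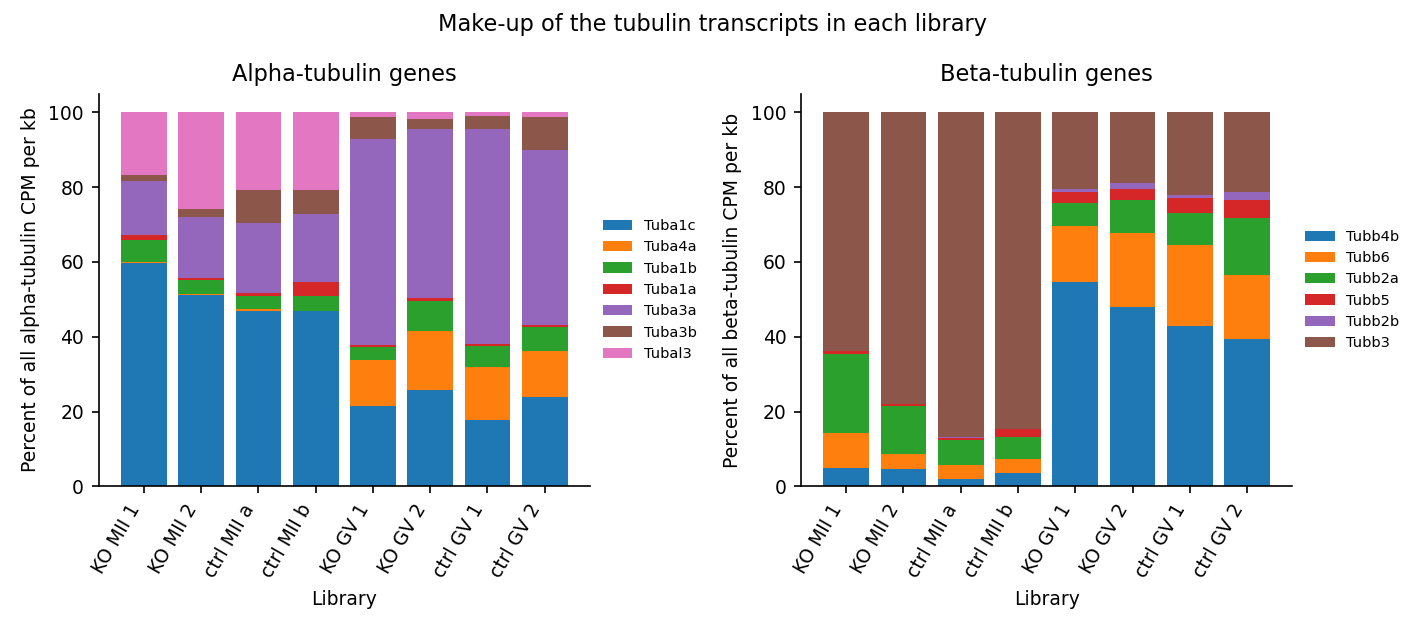
Percent of the summed CPM per kb of all α-tubulin (left) and all β-tubulin genes (right) held by each gene, 1 bar per library, with knockout (KO) MII, control (ctrl) MII, KO GV and ctrl GV from left to right. Tubb3 fills 63.8% to 86.9% of the β bars at MII and 19% to 22% at GV, and Tuba1c 46.9% to 59.8% of the α bars at MII and 17.7% to 25.7% at GV. Genes differ in how much sequence they share with others, so shares of genes against each other are uncertain.

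Cytoplasmic polyadenylation elements keep stored mRNAs ready for use at maturation. The last 100 bases of the 3′ untranslated region were therefore searched on the mRNA strand for TTTTAT and TTTTAAT. The longest annotated coding transcript of each gene was used, and whether the oocyte uses these ends was not tested. Tuba3a with 84 and Tuba3b with 92 untranslated bases had shorter windows, and Tubb1 had none. Of the 10 members 1 held such a word, Tubb2b. Outside the members Tubb3 held 1 copy and Tubal3 held 2 that overlap by 1 base, and the 30 bases around each match are shown because these 3 genes took different courses at maturation. Capitals mark the word, or both copies in Tubal3.
Tubb2b: aagttatatcatTTTTATgatgctgggaat
Tubal3: aacatttgtagaTTTTATTTTATattaaaa
Tubb3: gtctgtTTTTATggtttgttttgttttttt
The word began 31 bases from the transcript end in Tubb2b, 83 and 78 in Tubal3 and 94 in Tubb3. Of 12340 tested genes with an annotated 3′ untranslated region of at least 100 bases, 19.7% held TTTTAT or TTTTAAT in that window. The polyadenylation signals AATAAA or ATTAAA stood in the window of 7 of the 10 members. Over the same 12340 genes AATAAA stood in 67% and ATTAAA in 21.7%. The share of those genes with either signal was not counted, so the members cannot be compared with it.

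The knockout comparison asked whether loss of BAF250a altered tubulin mRNA at either stage. At MII 1 of the 9 tested members passed. Tubb5 fell at knockout MII, with 6.05 and 6.42 CPM (203 and 170 reads) against 19.6 and 36.4 CPM at control MII (510 and 1101 reads), a log2 fold change of -2.17 ± 0.33 (edgeR quasi-likelihood, adjusted p = 0.00756). The groups did not overlap, and knockout MII stood at 22.3% of control MII. The call remained in all 8 fits that left out 1 library, with fold changes of -2.52 to -1.59. The smallest change came without control MII library b, the library with the high blood and immune markers (-1.59, adjusted p = 0.0355). Mitochondrial reads were also lower at knockout MII than at control MII, and their part in this result was not tested.

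The other 8 members differed between knockout and control MII by log2 -1.03 (Tuba1a) to 0.45 (Tuba1b), with adjusted p of 0.15 or more. Tubb2b had 0.774 and 0.68 CPM at knockout MII against 1.54 and 1.45 CPM at control MII (-1.03 ± 0.38, adjusted p = 0.15). Its groups did not overlap, but the values rest on 18 to 44 reads. Tuba4a differed by -0.23 ± 0.46, Tubb4b by -0.14 ± 0.32 and Tubb6 by -0.15 ± 0.38, while Tuba1c differed by 0.30 ± 0.32 and Tubb2a by 0.38 ± 0.31. Over all genes 3.44% were called lower and 1.7% higher at knockout MII. The median of the members was -0.15, beside -0.01 over all genes.

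At GV none of the 9 members passed in edgeR, 0 had an unadjusted p under 0.05 and DESeq2 called 0. Differences ran from -0.44 ± 0.31 for Tubb2a to 0.50 ± 0.32 for Tubb4b, and Tubb5 differed by -0.38 ± 0.31 (adjusted p = 0.81). Over all genes 0.597% were called higher and 0.392% lower at knockout GV. Of those calls 60.4% were higher with TMM scaling and 48.8% when libraries were scaled by their totals alone. SEs of the members at this stage ran from 0.31 to 0.73, the widest for Tuba1a.

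Whether the knockout effect differed between the stages was tested as its own term. No member passed in edgeR. For Tubb5 the effect at MII was lower than at GV by 1.79 on the log2 scale (-1.79 ± 0.45, unadjusted p = 0.00257, adjusted p = 0.182), and it was the 1 member with an unadjusted p under 0.05. DESeq2 called it (adjusted p = 0.0423), as did edgeR without a filter on low counts (adjusted p = 0.0127). The remaining members ran from -0.93 ± 1.04 for Tuba1a to 0.82 ± 0.44 for Tubb2a. Over all genes 0.0771% were called lower and 0.00642% higher in this term.

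**Figure D4:**
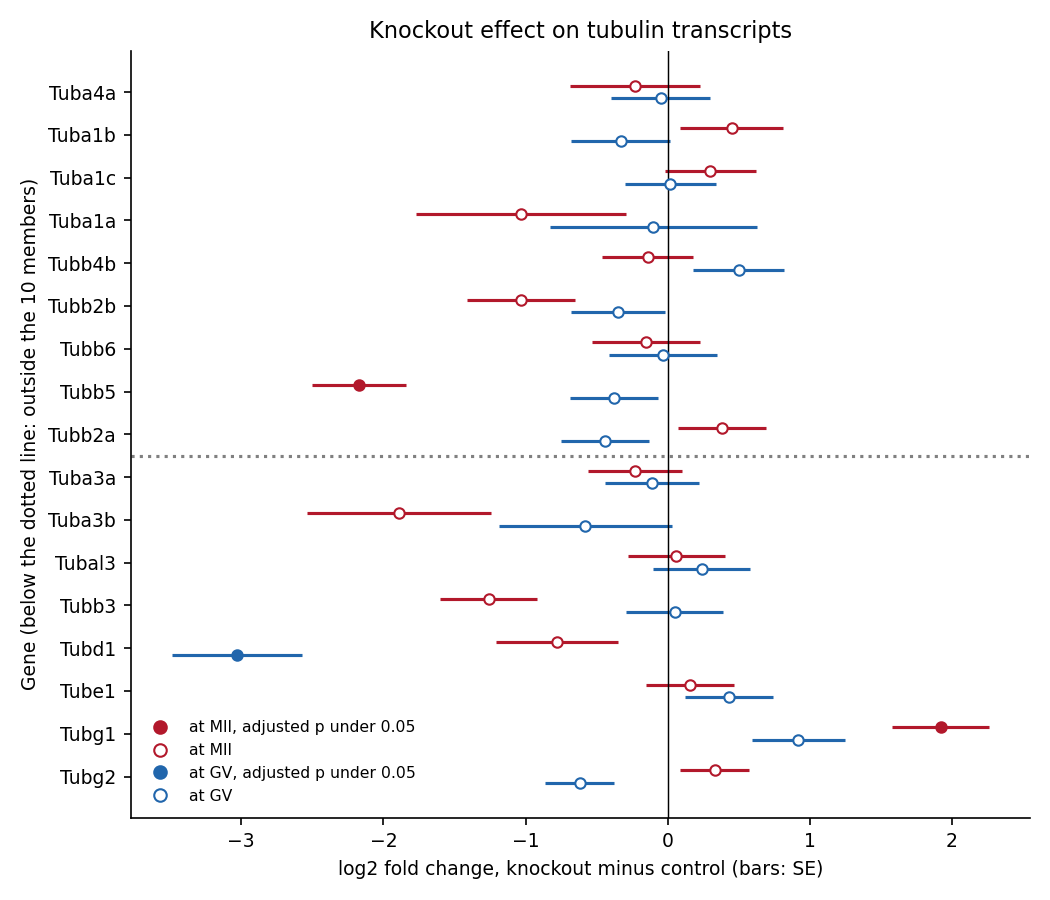
Log2 fold change of knockout minus control (x axis) with its SE at MII (red) and at GV (blue) for 9 members, above the dotted line, and 8 other tubulin genes. Filled points have an adjusted p under 0.05: Tubb5 at -2.17 and Tubg1 at 1.92 at MII, and Tubd1 at -3.03 at GV.

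Of the 8 tested tubulins outside the members, 1 (12.5%) was called in each knockout comparison, higher at MII and lower at GV. Over all genes 1.7% were called higher at MII and 0.392% lower at GV. With 8 genes nothing is read from 1 call. γ-Tubulin, the base of the ring that starts microtubules, is encoded by Tubg1 and Tubg2. Tubg1 rose to 87.1 and 127 CPM at knockout MII, against 21.7 and 34.6 CPM at control MII (1.92 ± 0.34, adjusted p = 0.0121), a call lost without control MII library a (adjusted p = 0.0553). At GV it had 50.5 and 42 CPM in knockout against 23.4 and 25.6 CPM in control oocytes (0.92 ± 0.33, adjusted p = 0.306). Tubg2 differed by 0.33 ± 0.24 at MII and -0.62 ± 0.24 at GV and passed at neither. δ-Tubulin, a centriolar tubulin, is encoded by Tubd1, which fell to 4.25 and 3.59 CPM at knockout GV, against 28.6 and 35.6 CPM at control GV (-3.03 ± 0.46, adjusted p = 0.0128). Leaving out any library of this comparison lost that call (largest adjusted p = 0.176), and DESeq2 made it (adjusted p = 9.32e-09). Tubb3, with the values given above, differed between knockout and control MII by -1.26 ± 0.34 (adjusted p = 0.0663) and Tuba3b by -1.89 ± 0.65 (adjusted p = 0.122), and DESeq2 called both lower.

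During maturation Tubg2 and Tubg1 rose in knockout oocytes (1.52 ± 0.25, adjusted p = 0.000634, and 1.21 ± 0.33, adjusted p = 0.012), and the Tubg1 call was lost in 3 of 8 fits that left out a library. In control oocytes they differed by 0.57 ± 0.24 and 0.20 ± 0.33 and did not pass. Whether the genotypes differ in this is the same term as above, with adjusted p = 0.332 for Tubg2 and 0.446 for Tubg1. Tube1, which encodes ε-tubulin, rose in knockout (1.42 ± 0.31) and control oocytes (1.68 ± 0.32). Tubd1 fell in control oocytes (-2.67 ± 0.45, adjusted p = 0.000867) and differed by -0.42 ± 0.44 in knockout oocytes. In the term for the difference DESeq2 called Tubd1 higher, and edgeR did not (adjusted p = 0.214).

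The proteins that act on tubulin mRNA include TTC5. Ttc5 rose at knockout GV, with 139 and 198 reads (7.87 and 8.18 CPM) against 4 and 8 reads (0.186 and 0.335 CPM) at control GV (4.91 ± 0.93, adjusted p = 0.0388). At MII it had 15 and 10 reads in knockout against 1 and 2 reads in control oocytes (2.85 ± 0.97, adjusted p = 0.12). The GV call was lost when any library of the comparison was left out (largest adjusted p = 0.325), with fold changes of 4.57 to 5.4, and DESeq2 made it (adjusted p = 1.99e-05). The other 3 genes of this list, Scaper, Cnot1 and Cnot11, passed in neither knockout comparison in edgeR or DESeq2. At maturation 2 of the 4 fell in knockout and 1 in control oocytes. Over all genes 29.1% were called lower and 19.9% higher at MII in knockout oocytes, and 27.9% were called lower and 21.2% higher in control oocytes. Ttc5 fell at MII in knockout oocytes (-4.27 ± 0.89, adjusted p = 0.00283). Cnot1, the scaffold of CCR4-NOT, fell at MII in knockout (-3.98 ± 0.32) and control oocytes (-3.48 ± 0.31), while Cnot11 differed by -0.53 ± 0.25 and 0.28 ± 0.25 and did not pass.

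Newly made tubulin is folded by prefoldin, the CCT chaperonin and the tubulin cofactors. Of 21 genes of this list, 12 fell and 1 rose at MII in knockout oocytes, and 13 fell in control oocytes, with medians of -2.63 and -2.70 beside -0.33 and -0.20 over all genes. Those that fell were 57.1% of the list in knockout and 61.9% in control oocytes, beside 29.1% and 27.9% of all genes. Tcp1, a CCT subunit, fell to 0.864 and 0.68 CPM at knockout MII and 0.423 and 0.76 CPM at control MII, against 43.3 and 33 CPM at knockout GV and 27.4 and 45.5 CPM at control GV. Pfdn6, a prefoldin subunit, fell in knockout (-6.67 ± 1.15) and control oocytes (-5.73 ± 1.09), with 21 and 0 reads at knockout MII and 29 and 5 at control MII. At knockout MII DESeq2 called Tbcd higher and Cct6a lower, besides Pfdn5, which it also called higher in the difference between stages. In the knockout comparisons edgeR called 1 of the 21 (4.76%, beside 1.7% of all genes called higher at MII). This was Pfdn5, another prefoldin subunit, which rose at MII. It had 197 and 232 CPM at knockout MII, against 42.5 and 60.3 CPM at control MII (2.06 ± 0.33, adjusted p = 0.00882), a call lost without control MII library a (adjusted p = 0.0513).

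Of 19 tested enzymes that modify tubulin, 4 rose (21.1%) and 7 fell (36.8%) in knockout, and 4 rose (21.1%) and 8 fell (42.1%) in control oocytes. The shares that rose were near those over all genes, and the medians of -0.88 in both genotypes lay under those of all genes. Ttll10, a tubulin polyglycylase in mice, had 197 and 238 reads at knockout GV and 465 and 275 at control GV but 0 reads in all 4 MII libraries, at least 104-fold lower in knockout and at least 154-fold lower in control oocytes against a floor of 3 counts per library. Ttll12, of the same family, fell in knockout (-3.23 ± 0.98) and control oocytes (-5.51 ± 1.14). The knockout call was lost in 3 of the 8 fits that left out a library (-5.13 to -2.49, largest adjusted p = 0.0688), those without knockout MII library 1 or either knockout GV library. Sirt2, a tubulin deacetylase, had 0 reads in both knockout MII libraries and 7 and 18 reads at control MII, against 411 and 480 at knockout GV and 626 and 230 at control GV. At maturation it fell at least 213-fold in knockout oocytes and by 5.46 on the log2 scale in control oocytes (-5.46 ± 0.76). At MII it was at least 4.26-fold lower in knockout than in control oocytes (adjusted p = 0.0326), and that call was lost in 5 of the 8 fits that left out a library. No other gene of this list passed in a knockout comparison in edgeR, and DESeq2 called Ttll12, Ttll9 and Agbl3 higher at MII. In the difference between stages DESeq2 called Sirt2 lower, and edgeR did not (adjusted p = 0.172).

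Of 16 tested genes for nucleation, 5 rose (31.2%) and 7 fell (43.8%) at MII in knockout and 4 rose (25%) and 8 fell (50%) in control oocytes, beside the 19.9% and 29.1% over all genes in knockout and 21.2% and 27.9% in control oocytes. Their medians were -1.0 and -0.91. Tubgcp2, a subunit of the γ-tubulin complex, fell in knockout (-5.69 ± 0.87) and control oocytes (-7.40 ± 0.97). Haus2, of the augmin complex that branches spindle microtubules, had 0 reads in all MII libraries, at least 13.8-fold lower in knockout and 15.3-fold lower in control oocytes, and Haus7 of the same complex fell in knockout (-6.50 ± 0.85) and control oocytes (-3.67 ± 0.72). At knockout MII DESeq2 called Haus7 lower and edgeR did not (-2.31 ± 0.77, adjusted p = 0.116). Haus8, also of augmin, fell in the knockout at both stages. It had 2.32 and 0.302 CPM at knockout MII, against 19.7 and 28.4 CPM at control MII (-4.16 ± 0.70, adjusted p = 0.0108). At GV it had 9.46 and 8.76 CPM in knockout, against 76.9 and 114 CPM in control oocytes (-3.39 ± 0.66, adjusted p = 0.0447), a call lost when any 1 library of that comparison was left out (largest adjusted p = 0.299).

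Of 16 tested growth and stability factors, 6 rose (37.5%) and 3 fell (18.8%) in knockout, and 7 rose (43.8%) and 3 fell (18.8%) in control oocytes, beside the same all-gene shares, with medians of 0.43 and 0.75. The 7 include Tpx2, a spindle assembly factor (0.76 ± 0.27, adjusted p = 0.0414), which was called in 0 of 8 fits that left out a library and not by DESeq2 (adjusted p = 0.104). Calls for Camsap1, Camsap2 and Ckap5 in knockout oocytes were also lost in some fits that left out a library. Their values in these fits ran from 0.61 to 0.87, 0.77 to 0.89 and 0.72 to 1.19. The same held in control oocytes for Camsap1 (0.82 to 1.31) and Numa1 (0.97 to 1.54). In each knockout comparison 2 genes of this list had an unadjusted p under 0.05 and edgeR called 0, while DESeq2 called 1, Dlgap5 at MII. Camsap3, which binds minus ends, fell in knockout (-4.73 ± 0.73) and control oocytes (-4.97 ± 0.75). Clasp1, a rescue factor at plus ends, fell by 3.49 and 3.03 on the log2 scale in knockout and control oocytes, and Dlgap5, which stabilises spindle fibres at kinetochores, by 3.89 and 1.97. The Dlgap5 call in control oocytes was lost without control GV library 1 (adjusted p = 0.0666), and over the 8 fits that left out a library its value ran from -2.50 to -1.18. Of 12 tested shortening and severing genes, 4 rose (33.3%) and 5 fell (41.7%) in knockout, and 4 rose (33.3%) and 6 fell (50%) in control oocytes, with medians of -0.18 and -0.43. Kif18b, a kinesin that shortens plus ends, fell in knockout (-6.33 ± 0.76) and control oocytes (-4.89 ± 0.71). Katnal2, a katanin-like severing ATPase, fell at knockout MII with 3 and 3 reads against 109 and 54 at control MII (-4.83 ± 0.59, adjusted p = 0.00252), and was at 754 and 931 reads at knockout GV against 999 and 1104 at control GV (-0.19 ± 0.41). It fell at maturation in knockout (-8.59 ± 0.62) and control oocytes (-3.96 ± 0.46). The term for the difference had an adjusted p of 0.0625 in edgeR and was called by DESeq2. Of the same list DESeq2 also called Stmn1 lower at knockout GV and Katna1 higher at knockout MII. These lists, like the members, were drawn up with results of these data known.

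Genes outside the members whose course over the 8 libraries lay closest to the most abundant α and β member were found by the root mean square difference of log2 CPM centred on each gene's mean. For Tuba1c these were Asnsd1 (0.208), Vrtn (0.21), Cd320 (0.211), Gcn1l1 (0.212) and Atp9a (0.218). For Tubb4b they included Gtsf1 (0.196), Ndufb11 (0.221), Rpl35 (0.229) and Rars (0.232). The range of log2 CPM over the libraries was 2.1 to 2.46 among the neighbours of Tuba1c and 6.49 to 6.81 among those named for Tubb4b.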

How the data were processed

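The deposited values were raw read counts per Ensembl gene, from the authors' single table of 54838 genes and 5 summary entries that name no gene and held 22% to 35.1% of the reads. Reads were aligned with Bowtie2 to mm10 and counted with HTSeq, per the submitters' processing notes. The sources used here give no versions, strand setting or filters. Per the file headers, both control MII columns carry the same name, so they are called libraries a and b without a replicate number; 0 value columns were left unused. Replicate columns differed far beyond sampling noise (chi-square of 52.2 to 115 per degree of freedom). Names came from GENCODE M21, which places 54809 of the identifiers, and the transcripts of all 10 members were found in it.

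Counts were fitted over all 8 libraries in R 4.3.3 with edgeR 4.0.16: filterByExpr (15572 genes), TMM scaling, 1 mean per group, two-sided quasi-likelihood F-test, Benjamini-Hochberg adjustment over all tested genes, calls at an adjusted p under 0.05. SE is the size of the log2 fold change divided by the square root of F. Per-length levels use reads in genes and the union of exons. Alternatives were DESeq2 1.42.0, other scalings, filters, samples, lengths, a replicate block and leaving out each library. A count of 0 allows 3 counts, for counting error only.

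The members and lists were chosen with earlier results of these data known. Named were all tubulins, genes of each list called in a knockout comparison or in its difference between stages (at most 4 each), the 2 largest called changes per list and maturation comparison, Arid1a, and the 5 nearest patterns to Tuba1c and Tubb4b, of which 1 is not reported here.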

Additional observations from a re-analysis of the deposited data

How the results depend on the processing

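The count of members called was the same under every alternative at GV (0) and at MII (1, Tubb5). A replicate block over the 6 libraries with a number called 0 members at GV; same-numbered libraries had correlations of deviations of -0.02, 0.0127 and 0.119, so the numbers are not taken as pairs. For the difference between stages 1 member, Tubb5, was called by DESeq2 and 1 without a filter on low counts. No called change of a member turned its sign. Uncalled ones did. At GV, Tuba1c was -0.32 with library totals and -0.03 among genes averaging 5 CPM or more, and Tubb6 was 0.04 with the block. In the difference between stages, Tuba4a was 0.07 and Tubb6 0.09 with library totals. Leaving out 1 library gave, at GV, -0.29 to 0.12 for Tuba1a, -0.29 to 0.43 for Tuba1c, -0.22 to 0.11 for Tuba4a, -0.64 to 0.03 for Tubb2b and -0.36 to 0.39 for Tubb6. At MII it gave -1.76 to 0.14 for Tuba1a, -0.03 to 0.88 for Tuba1b, -0.75 to 0.68 for Tuba4a, -0.23 to 0.04 for Tubb4b and -0.71 to 0.34 for Tubb6. For the difference it gave -1.67 to 0.24 for Tuba1a, -0.13 to 0.59 for Tuba1c, -0.70 to 0.72 for Tuba4a and -0.67 to 0.37 for Tubb6. With the longest transcript as length the summed level was 171 CPM per kb at control MII, 2609 at knockout GV and 2784 at control GV, and with TMM-scaled library sizes 2240 at knockout GV and 1981 at control GV. Library totals in place of TMM shifted the median of all genes by -0.27 at GV, -0.16 for maturation in control oocytes and 0.21 for the difference, and RLE scaling by -0.13 for maturation in control oocytes.

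Over all genes, calls numbered 154 at GV, 800 at MII and 13 for the difference, against 526, 1773 and 355 by DESeq2 and 527, 1829 and 498 without a filter. The difference had 41 calls among genes averaging 5 CPM or more, 1 with RLE scaling and 2 with library totals. A fit on the 4 libraries of a contrast called 702 genes at GV and 392 at MII. Leaving out 1 library gave 29 to 187 calls at GV, 440 to 771 at MII and 0 to 23 for the difference; the cause was not tested. Depth limits Tuba4a, Tubb2b and Tuba1a at MII, which had 13 to 173 reads per library, and with 2 libraries a group the spread is known poorly.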
